A study of Mus musculus with 24 samples.

Results

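The cell cycle inhibitors and senescence genes described here were 10 mouse genes chosen by name: the cyclin-dependent kinase inhibitors Cdkn2a, Cdkn2b, Cdkn2c, Cdkn2d, Cdkn1a and Cdkn1b, the p53 gene Trp53 and its ubiquitin ligase gene Mdm2, the retinoblastoma gene Rb1 and the lamin gene Lmnb1. The genes, and the gene lists used below, were chosen with earlier results of these data known. These 10 were among the 43430 gene rows in the deposited count table, and all 10 were among the 13467 genes kept by the low-count filter. Alveolar macrophages of C57BL/6J mice had been sorted into 6 groups, and poly(A) RNA of each was sequenced as 4 libraries, 24 in all. Mice were young (8 to 12 weeks by the sample labels) or old (over 18 months). They were either naive or had received asbestos 28 days earlier, a fibre that injures the lung and leads to fibrosis. Siglec F is a surface lectin of resident alveolar macrophages. Siglec F-high cells were taken from young naive, old naive, young asbestos and old asbestos mice, and Siglec F-low cells from young asbestos and old asbestos mice. The labels named no transgene or drug for any of these groups, and the sorts are called here by Siglec F alone.

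Cyclin-dependent kinases drive a cell from one phase of its cycle to the next. The INK4 inhibitors (Cdkn2a to Cdkn2d) bind Cdk4 and Cdk6, and the CIP/KIP inhibitors (Cdkn1a, Cdkn1b) bind cyclin and kinase complexes more widely. Either family keeps the retinoblastoma protein in the state that holds E2F factors silent, and p53 acts upstream through Cdkn1a. In senescence, a lasting arrest of division that becomes more frequent with age, cells commonly raise Cdkn2a or Cdkn1a, lose lamin B1 and secrete inflammatory factors. Alveolar macrophages renew themselves by division in the airspace, and Cdkn2a is also raised in macrophages by stimuli other than senescence.

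The total count of 22 libraries lay between 13423080 and 18124526, with 17069 to 18820 genes above 0. The other two libraries stood apart. Replicate 3 of the young asbestos Siglec F-high group had 11889517 counts on only 12528 genes, and replicate 3 of the old asbestos Siglec F-high group had 3894699 counts, of which 35.6% fell on the single row Gm42418 against at most 0.357% in the 22. Tests on the 10 genes were therefore run over all 24 libraries and over the 22 without these, and values are over 24 unless 22 is stated. Resident alveolar macrophage markers were abundant. All 8 were detected, and their summed level was 13520 to 64020 CPM (counts scaled to a common library size) per library. The 4 eosinophil markers summed to 0 to 5.71, neutrophil markers to 30.5–97.0, B cell markers to 65.9–210.5 and epithelial markers to 171–390 CPM. The resident sum was 33820–45420 CPM in Siglec F-low and 21780–27480 in Siglec F-high cells of young asbestos mice. In old asbestos mice it was 49910–64020 and 14140–38350 CPM. At an edgeR adjusted p under 0.05, 1 of the 8 was higher and 3 lower in young Siglec F-low cells, and 1 and 2 in old. Of all genes tested, 4.99% in young and 4.30% in old mice were called in either direction. Siglecf itself was lower in the Siglec F-low sorts (log2 fold change -0.67 in young and -1.35 in old mice over 24 libraries, edgeR adjusted p = 0.00443 and 3.84e-06). Nothing in the labels said that replicates were separate animals, so p-values measure the spread between these libraries, which may be technical. In bulk RNA from sorted cells, a lower level of a gene in every cell and a smaller share of cells that express it cannot be told apart.

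The results below turn on Cdkn2a and Cdkn2b, which lie side by side on chromosome 4, and on the contrast with Cdkn1a, so the sequences before their starts are shown first (RefSeq, build GRCm38.p6, 250 bases, 5′ to 3′ on the gene's strand). Cdkn2a makes the INK4 protein p16Ink4a and, from an upstream start, the unrelated p53 activator p19Arf, and the deposited row sums both, so its counts cannot be split between them. Capitals mark the E2F motif TTTCCCGC in the Arf window and a pair of matches to the p53-binding decamer consensus in the Cdkn1a window.
Cdkn2a, Arf start, chr4:89294620-89294869, minus strand: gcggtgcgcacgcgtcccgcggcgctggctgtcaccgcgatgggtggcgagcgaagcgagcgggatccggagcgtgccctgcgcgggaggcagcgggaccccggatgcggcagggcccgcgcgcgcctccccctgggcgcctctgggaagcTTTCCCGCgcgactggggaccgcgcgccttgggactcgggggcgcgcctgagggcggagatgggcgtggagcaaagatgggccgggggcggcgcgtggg
Cdkn2a, Ink4a start, chr4:89282193-89282442, minus strand: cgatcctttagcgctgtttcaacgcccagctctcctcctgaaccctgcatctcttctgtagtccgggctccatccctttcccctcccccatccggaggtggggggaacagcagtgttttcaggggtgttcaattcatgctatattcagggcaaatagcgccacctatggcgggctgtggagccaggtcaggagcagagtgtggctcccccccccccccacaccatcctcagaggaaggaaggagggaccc
Cdkn2b, chr4:89311033-89311282, minus strand: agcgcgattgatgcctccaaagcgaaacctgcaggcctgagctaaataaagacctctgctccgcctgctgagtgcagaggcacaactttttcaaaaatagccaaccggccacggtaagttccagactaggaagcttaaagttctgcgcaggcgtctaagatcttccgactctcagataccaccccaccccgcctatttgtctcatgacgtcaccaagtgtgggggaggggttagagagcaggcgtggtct
Cdkn1a, chr17:29090729-29090978, plus strand: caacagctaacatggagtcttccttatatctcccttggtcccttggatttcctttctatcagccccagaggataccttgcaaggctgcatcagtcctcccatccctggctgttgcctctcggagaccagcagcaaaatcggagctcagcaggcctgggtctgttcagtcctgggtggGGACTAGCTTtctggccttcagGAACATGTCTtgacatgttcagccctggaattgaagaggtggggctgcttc

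These 4 windows differ in composition. The Arf window held 78.4% G or C and 40 CpG dinucleotides, the Ink4a window 60% and 7, the Cdkn2b window 53.6% and 12, and the Cdkn1a window shown 54.0% and 2. RefSeq lists a second Cdkn1a start, whose window (chr17:29093519-29093768, plus strand, not printed) held 64.8% and 19 and matched neither motif. Windows were searched on both strands, from 250 bases before to 50 after the start, for the E2F motifs TTTCCCGC, TTTGGCGC and TTTCGCGC and for the p53 decamer, with no overlap between the motif families. The Arf window had 1 E2F match, starting 99 bases before the start, and 606 of 32851 RefSeq windows (1.84%) held such a match. In the Cdkn1a window shown 2 decamers stood 12 bases apart, the first starting 73 bases before the start. Decamer pairs with at most 13 bases between them were in 24 windows (0.0731%), and single decamers in 2745 (8.36%). Of the 10 genes 8 had a window. A match is a description of letters only, and Rb1 and Lmnb1 are not shown.

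Per kilobase of exon, Cdkn1a was the most abundant of the 10 transcripts, with a median of 106 CPM per kilobase over 24 libraries. Mdm2 (17.1), Trp53 (16.7), Cdkn1b (14.5), Lmnb1 (13.1) and Rb1 (10.2) followed on the same scale. The 4 INK4 genes were lowest, with medians of 6.33 for Cdkn2d, 6.25 for Cdkn2a, 4.03 for Cdkn2c and 3.42 CPM per kilobase for Cdkn2b. Single libraries held from 8 to 339 counts of Cdkn2a and from 9 to 179 of Cdkn2b, so the lowest values rest on few reads. All levels below are CPM.

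**Figure D1:**
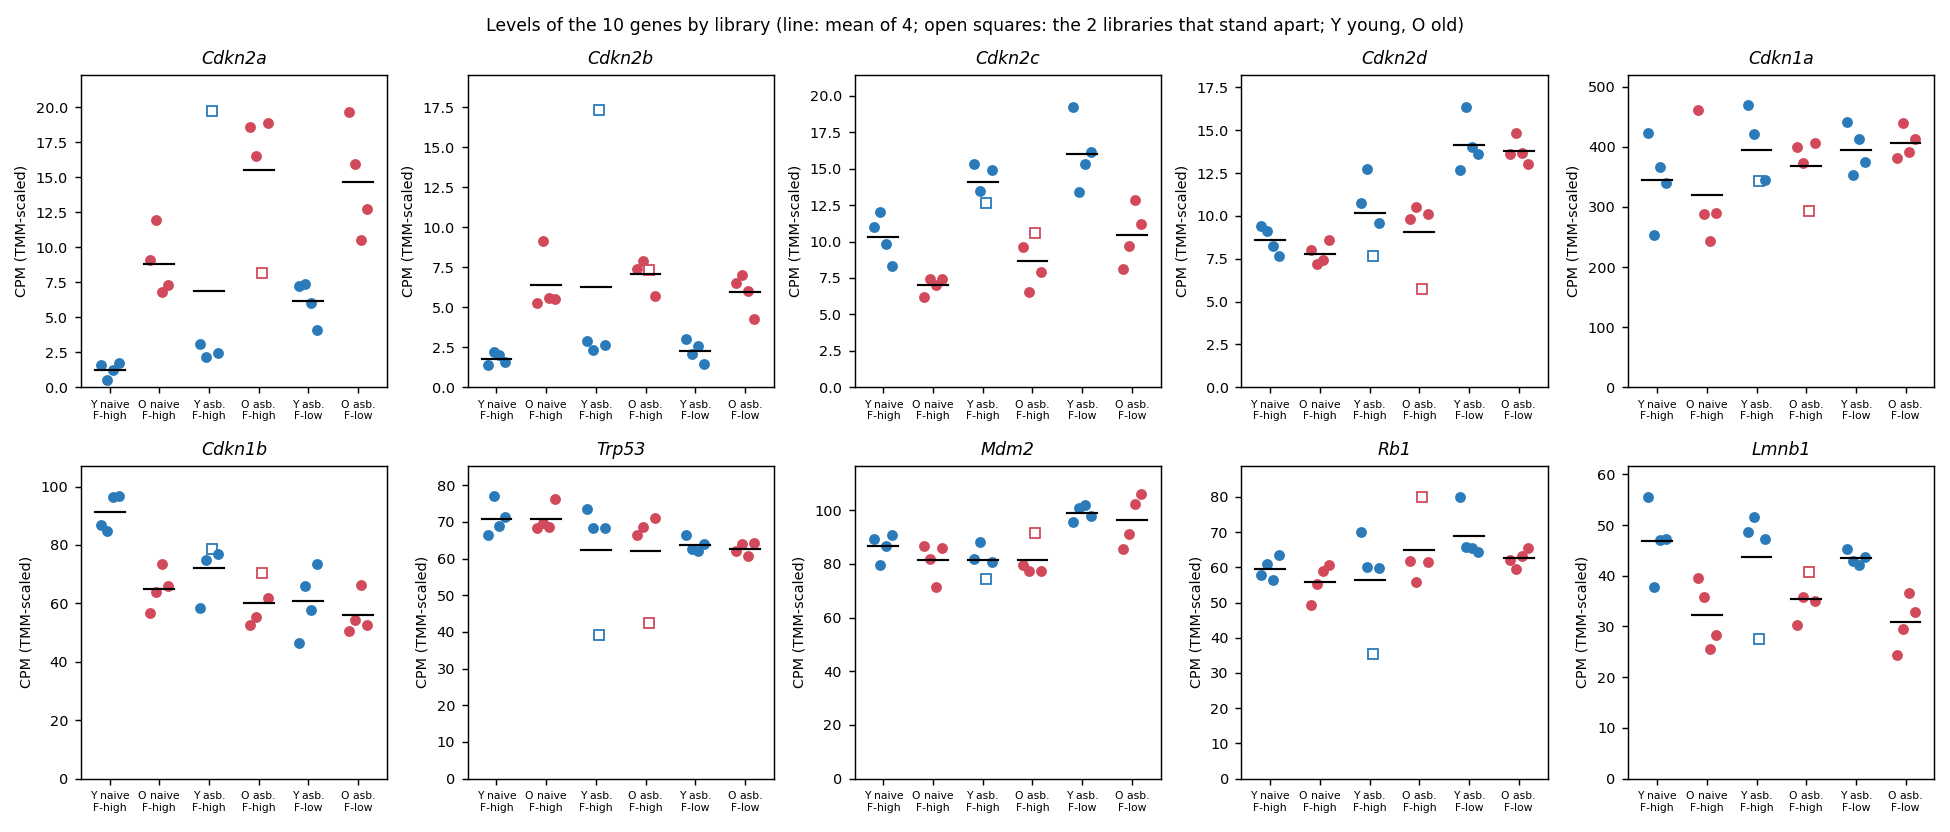
Level of each of the 10 genes in every library (y axis, CPM scaled by library size with TMM, the trimmed mean of M-values, linear and from 0; x axis, the 6 groups). Points are libraries, blue young and red old, lines are means of 4, and open squares are the 2 libraries that stand apart. Cdkn2a and Cdkn2b are higher in old than in young libraries of each cell group apart from the open square at 19.7 and 17.3 CPM, and Cdkn2c and Lmnb1 have lower means in the old groups.

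Over the mean of the 3 cell groups (naive Siglec F-high, asbestos Siglec F-high and asbestos Siglec F-low), 5 of the 10 genes differed between old and young mice at an edgeR adjusted p under 0.05, where 9.62% of all genes tested did. Cdkn2a and Cdkn2b rose, and Cdkn2c, Cdkn1b and Lmnb1 fell. The same count was 5 over 22 libraries, against 22.6% of all genes. Cdkn1a, Cdkn2d, Trp53, Mdm2 and Rb1 did not pass. The fit treated the asbestos Siglec F-high and Siglec F-low libraries of the same age as unrelated. They may come from the same animals, which the labels do not say, so p-values and SEs of this mean may be too small. Within single cell groups fewer passed over 24 libraries. There were 2 in the naive cells (2.03% of all genes), 1 in the asbestos Siglec F-high cells (4.76%) and 0 in the asbestos Siglec F-low cells (1.29%). In the last, 4 genes had an unadjusted p under 0.05 (8.15% of all genes) and DESeq2 called 1. Over 22 libraries the counts were 5, 4 and 4 (8.03%, 7.32% and 7.21% of all genes). Young and old libraries did not overlap for 4 of the 10 genes in naive cells (12.0% of all genes), 1 in asbestos Siglec F-high (9.42%) and 4 in asbestos Siglec F-low cells (12.9%) over 24 libraries. The 10 genes' median log2 fold change over the mean of the 3 groups was -0.05, beside 0.00 for all genes tested.

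Cdkn2a had the largest difference with age of the 10 genes in naive cells and in the mean of the 3 groups. In naive Siglec F-high cells its level was 1.60, 0.509, 1.21 and 1.73 CPM in the 4 young libraries and 9.09, 12.0, 6.80 and 7.28 CPM in the 4 old ones. The groups did not overlap, and the means were 1.26 ± 0.549 (SD, n = 4) and 8.78 ± 2.33 CPM (SD, n = 4). The log2 fold change was 2.77 ± 0.56 (SE), a 6.84-fold rise (edgeR adjusted p = 0.00583; 3.05e-07 over 22 libraries).

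After asbestos the Siglec F-high cells had 3.11, 2.187, 19.7 and 2.43 CPM of Cdkn2a in the young and 18.6, 16.5, 8.17 and 18.9 CPM in the old libraries. The outlying value in each set was replicate 3, the library that stands apart: the young one was above every old library, and the old one, which rests on 10 counts, was below the other old ones. Over 24 libraries the groups overlapped, with a log2 fold change of 1.31 ± 0.51 (SE, edgeR adjusted p = 0.114). Over 22 they were separate, at 2.81 ± 0.29 (SE, edgeR adjusted p = 1.38e-06), a 7.02-fold difference. Leaving out the young replicate 3 alone gave 2.71 (edgeR adjusted p = 5.01e-06).

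Siglec F-low cells after asbestos had 7.22, 7.36, 6.02 and 4.05 CPM of Cdkn2a in the young and 19.6, 15.9, 10.5 and 12.7 CPM in the old libraries. Every old library was again above every young one, from a higher young level than in the Siglec F-high cells of the 22 libraries. The log2 fold change of 1.26 ± 0.50 (SE) did not pass over 24 libraries (edgeR adjusted p = 0.391) and passed over 22 at the same size (1.26 ± 0.23, edgeR adjusted p = 0.00111). Averaged over the 3 cell groups Cdkn2a rose by 1.78 ± 0.30 on the log2 scale over 24 libraries (SE, edgeR adjusted p = 0.000328) and by 2.28 ± 0.15 over 22 (SE, edgeR adjusted p = 1.96e-10).

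In the 22 libraries the mean Cdkn2a level ran upward through young naive Siglec F-high (1.26 CPM), young asbestos Siglec F-high (2.58 ± 0.477, SD, n = 3), young asbestos Siglec F-low (6.16 ± 1.53, n = 4), old naive Siglec F-high (8.78), old asbestos Siglec F-low (14.7 ± 3.98, n = 4) and old asbestos Siglec F-high (18.0 ± 1.28, n = 3). The lowest 3 groups were separate from one another. From young Siglec F-low upward each group overlapped the next in the order.

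Cdkn2b, the INK4 gene that lies next to Cdkn2a, followed the same direction with age at lower levels. Naive cells had 1.39, 2.23, 1.99 and 1.57 CPM in young and 5.25, 9.15, 5.58 and 5.51 CPM in old libraries, a log2 fold change of 1.83 ± 0.48 (SE, edgeR adjusted p = 0.0471; 1.35e-05 over 22 libraries). The groups did not overlap, although the call over 24 libraries sat close to the threshold. With any 1 of these 8 naive libraries left out, its adjusted p was 0.0664 to 0.162 by edgeR, while the log2 fold change stayed between 1.60 and 1.94. It was also 0.0515 to 0.0606 with any 1 library of the Siglec F-low or old asbestos Siglec F-high groups left out.

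After asbestos Cdkn2b stood at 2.89, 2.34, 17.3 and 2.62 CPM in young and at 7.41, 7.91, 7.35 and 5.68 CPM in old Siglec F-high libraries. The young replicate 3 was again the highest of all, so the log2 fold change was 0.21 ± 0.47 (SE, edgeR adjusted p = 0.808) over 24 libraries and 1.43 ± 0.26 (SE, edgeR adjusted p = 0.00126) over 22. Without it alone the log2 fold change was 1.43 (edgeR adjusted p = 0.00132). In Siglec F-low cells the young libraries had 3.03, 2.05, 2.597 and 1.43 CPM and the old ones 6.55, 7.04, 6.02 and 4.26 CPM, with no overlap. In those cells the log2 fold change was 1.39 ± 0.47 over 24 libraries (SE, edgeR adjusted p = 0.232) and 1.40 ± 0.23 over 22 (SE, edgeR adjusted p = 0.000484). Averaged over the 3 groups Cdkn2b rose by 1.14 ± 0.27 (SE, edgeR adjusted p = 0.00781), and by 1.56 ± 0.14 over 22 libraries (SE, edgeR adjusted p = 2.32e-08). In the 22 libraries every young group lay below every old group. Young Siglec F-low libraries overlapped both young Siglec F-high groups, and the 3 old groups overlapped among themselves.

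Cdkn2a (chr4:89274471-89294653, minus strand, GENCODE M21 on GRCm38) and Cdkn2b (chr4:89306299-89311039, minus strand) are neighbours, and 3 other named genes within 1000 kb of Cdkn2a passed the low-count filter. They were named after their values were seen. Mtap, a methionine salvage enzyme, had a log2 fold change with age of 0.11 (edgeR adjusted p = 0.545), Hacd4 of 0.01 (0.960) and Klhl9 of -0.07 (0.578). None passed over 22 libraries either (adjusted p of 0.176, 0.381 and 0.0668). Over the libraries, log2 CPM of Cdkn2a and Cdkn2b had a Pearson r of 0.808 in 22 and 0.801 in 24, given as a description since the groups set much of it.

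**Figure D2:**
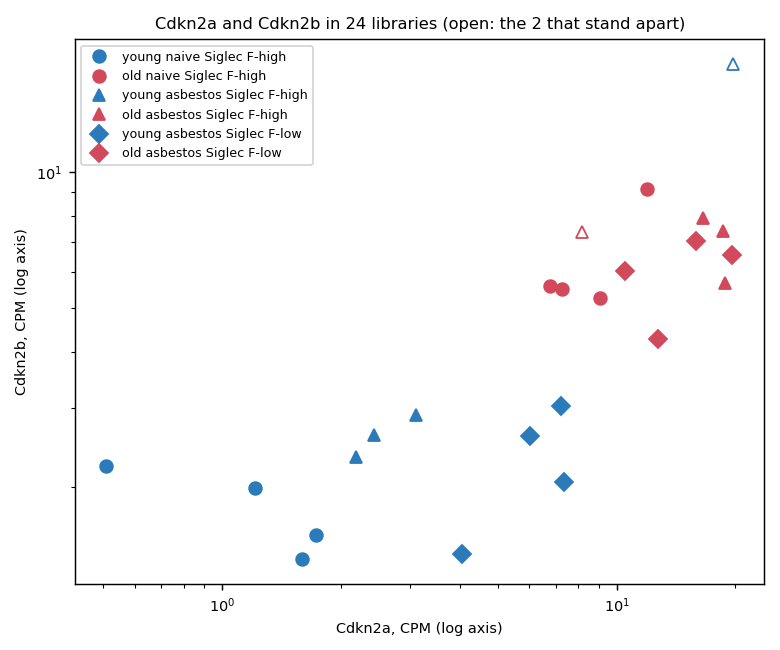
Cdkn2a (x axis) against Cdkn2b (y axis) in the 24 libraries, CPM on log axes, blue young and red old, with a marker shape per cell group and open symbols for the 2 libraries that stand apart. Filled young symbols lie at or below 7.36 CPM of Cdkn2a and 3.03 CPM of Cdkn2b, filled old symbols reach from 6.80 and 4.26 CPM upward, and the open young symbol is at 19.7 and 17.3 CPM.

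Cdkn2c encodes p18Ink4c, an INK4 protein that rises in cycling cells, and it moved opposite to Cdkn2a and Cdkn2b. Naive cells had 11.01, 12.03, 9.86 and 8.35 CPM in young and 6.18, 7.41, 7.02 and 7.40 CPM in old libraries. Asbestos Siglec F-high cells had 15.3, 13.5, 12.7 and 14.9 CPM in young and 9.64, 6.56, 10.6 and 7.93 CPM in old libraries, and Siglec F-low cells had 19.2, 13.4, 15.4 and 16.2 against 8.11, 9.72, 12.9 and 11.2 CPM. Every young library was above every old one in each cell group, the libraries that stand apart included. Averaged over the groups it fell by 0.64 on the log2 scale (SE 0.10, edgeR adjusted p = 8.18e-05), and by 0.67 over 22 libraries (SE 0.09, edgeR adjusted p = 8.46e-06).

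By cell group the log2 fold change of Cdkn2c was -0.56 in naive (edgeR adjusted p = 0.1), -0.75 in asbestos Siglec F-high (0.0146) and -0.62 in asbestos Siglec F-low cells (0.0705). Over 22 libraries all 3 passed (edgeR adjusted p of 0.0236, 0.00311 and 0.0111). The call in asbestos Siglec F-high cells was lost without old replicate 2 (edgeR adjusted p = 0.0624) or old replicate 4 (0.0566). The mean level rose from old naive (7.001 CPM) through old asbestos Siglec F-high (8.69), young naive (10.3), old asbestos Siglec F-low (10.5) and young asbestos Siglec F-high (14.1) to young asbestos Siglec F-low (16.03), and each group overlapped the next.

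Proliferation markers moved the same way. Of 16 such genes, 14 were lower in old mice over the mean of the 3 groups and 0 higher, beside 3.63% and 5.99% of all genes. Their median log2 fold change was -0.57. Over 22 libraries 16 were lower, where 22.6% of all genes were called in either direction. Birc5, a survival and mitosis protein, fell by 0.98 over 24 libraries (SE 0.24, edgeR adjusted p = 0.00827) and by 0.60 over 22. The 16 summed to 613.8–752.6 CPM in young and 480.7–518.3 in old naive libraries, 727.8–913.9 and 578.2–595.8 in asbestos Siglec F-high, and 782.7–951.1 and 493.2–611.6 in Siglec F-low. Young and old did not overlap in any of the 3. Their part in the differences of Cdkn2c and Lmnb1 was not tested.

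Cdkn2d, which encodes p19Ink4d, the fourth INK4 protein, showed no difference with age that passed. Its level was 7.64 to 9.42 CPM in young and 7.18 to 8.58 in old naive libraries, 7.64 to 12.7 and 5.72 to 10.6 in asbestos Siglec F-high, and 12.7 to 16.4 and 13.01 to 14.9 in Siglec F-low. The age groups overlapped throughout. The averaged log2 fold change was -0.09 (95% interval -0.28 to 0.09, edgeR adjusted p = 0.573; -0.10 and 0.331 over 22 libraries), and that interval lies below the one of Cdkn2a (1.15 to 2.41).

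Cdkn1a, which encodes p21, the inhibitor that p53 induces, was high and scattered. Naive cells had 422, 253, 366 and 340 CPM in young and 461, 289, 244 and 289 CPM in old libraries. After asbestos the young Siglec F-high libraries had 343 to 470 CPM and the old 294 to 407, and the Siglec F-low libraries 353 to 441 and 382 to 439. The age groups overlapped in every cell group. The averaged log2 fold change with age was -0.05 with a 95% interval of -0.26 to 0.15 (edgeR adjusted p = 0.794), and -0.04 (-0.23 to 0.15) over 22 libraries. Both intervals lie below those of Cdkn2a (1.15 to 2.41 over 24 and 1.97 to 2.599 over 22 libraries).

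Cdkn1b, the CIP/KIP inhibitor p27 of resting cells, fell with age. Naive cells had 86.8, 84.8, 96.5 and 96.6 CPM in young and 56.7, 64.0, 73.3 and 66.0 CPM in old libraries, which did not overlap. After asbestos the young libraries had 58.4, 74.7, 78.6 and 76.7 and the old 52.7, 55.4, 70.2 and 61.9 CPM in the Siglec F-high sort, and 46.3 to 73.4 against 50.5 to 66.3 CPM in the Siglec F-low sort, with overlap in both. The averaged log2 fold change was -0.30 ± 0.08 (SE, edgeR adjusted p = 0.0182; 0.00423 over 22 libraries). By group it was -0.49 in naive (edgeR adjusted p = 0.0718; 0.0115 over 22 libraries), -0.28 in asbestos Siglec F-high (0.208; 0.230) and -0.12 in Siglec F-low cells (1; 0.658).

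Trp53, the transcription factor p53, and Mdm2, the ligase that degrades it and is itself a p53 target, held nearly the same level in young and old. Naive cells had 66.5 to 77.1 CPM of Trp53 in young and 68.2 to 76.1 in old libraries, and Siglec F-low cells 62.0 to 66.4 and 60.6 to 64.1 CPM. In Siglec F-high cells after asbestos the 22 libraries had 68.3 to 73.6 CPM in young and 66.4 to 71.0 in old mice, while the 2 libraries that stand apart had 39.1 and 42.5 CPM. The averaged log2 fold change of Trp53 was 0.00 (95% interval -0.18 to 0.18, edgeR adjusted p = 0.990), and -0.01 (-0.08 to 0.06) over 22 libraries. That of Mdm2 was -0.04 (-0.16 to 0.07, edgeR adjusted p = 0.672; -0.07 and 0.295 over 22 libraries), with 71.3 to 90.9 CPM in naive, 74.3 to 91.5 in asbestos Siglec F-high and 85.8 to 106 CPM in Siglec F-low libraries.

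Rb1, whose protein the INK4 inhibitors protect from phosphorylation, lay between 35.4 and 80.0 CPM, and both extremes were libraries of the asbestos Siglec F-high groups that stand apart. Its averaged log2 fold change with age was -0.02 (95% interval -0.19 to 0.16, edgeR adjusted p = 0.944), and -0.10 (-0.20 to 0.00, edgeR adjusted p = 0.158) over 22 libraries. Exons of Rcbtb2 and Lpar6 on the other strand overlap those of Rb1, and the strand setting of the counting was not given in the sources used here, so some reads of these genes cannot be told apart.

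Lmnb1 encodes lamin B1, the nuclear lamina protein whose loss is a common marker of senescent cells. Naive cells had 55.5, 37.8, 47.0 and 47.2 CPM in young and 39.6, 35.8, 25.5 and 28.3 CPM in old libraries. Asbestos Siglec F-high cells had 48.7, 51.6, 27.6 and 47.2 CPM in young and 30.2, 35.7, 40.8 and 35.01 CPM in old libraries, and Siglec F-low cells had 45.3, 42.8, 42.0 and 43.6 against 24.3, 29.4, 36.6 and 32.9 CPM. Young and old were separate in Siglec F-low cells, overlapped in naive cells through 1 young library, and overlapped in asbestos Siglec F-high cells through the young replicate 3. Averaged over the groups Lmnb1 fell by 0.45 on the log2 scale (SE 0.10, edgeR adjusted p = 0.00512), and by 0.52 over 22 libraries (SE 0.08, edgeR adjusted p = 3.38e-05). No single group passed over 24 libraries (edgeR adjusted p of 0.164, 0.252 and 0.273), and all 3 did over 22 (0.0102, 0.0292 and 0.0223).

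**Figure D3:**
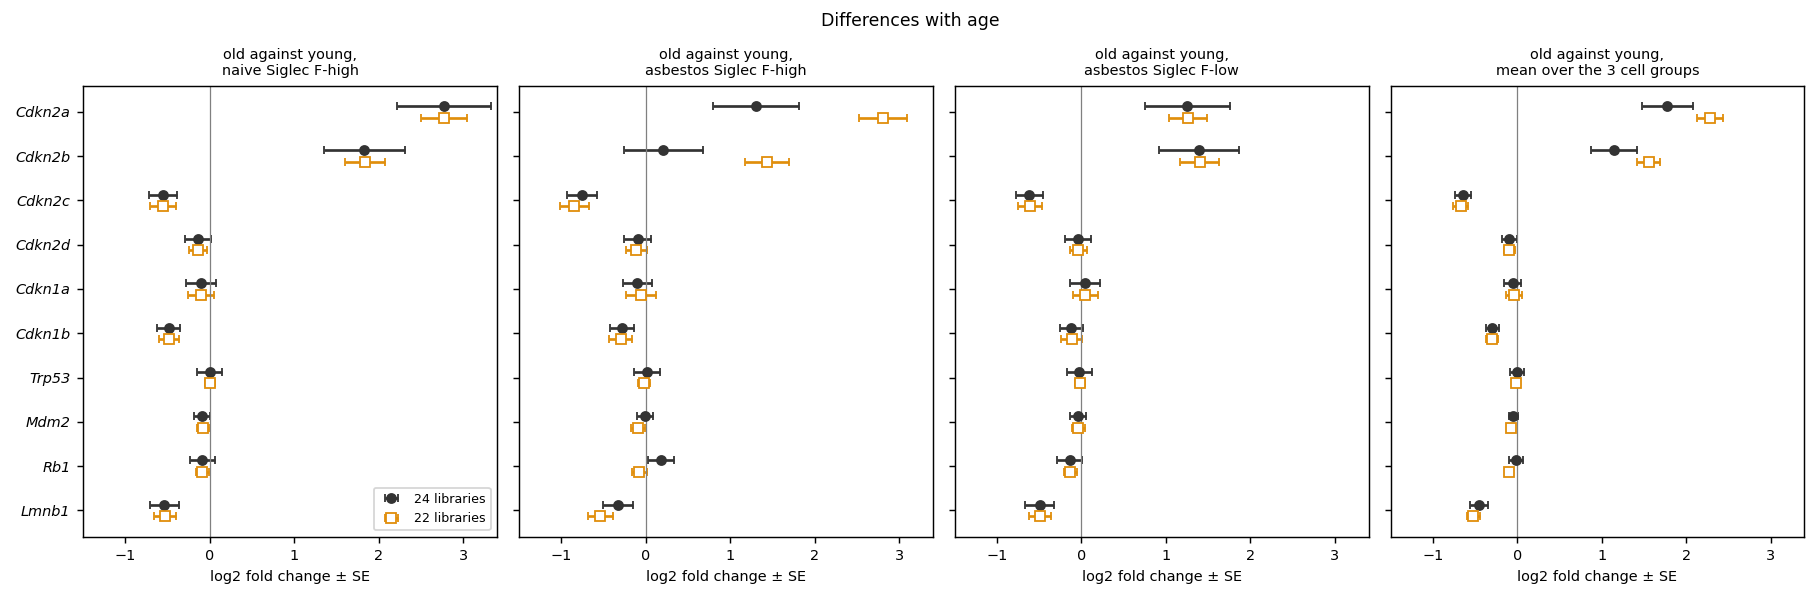
Log2 fold change of old against young (x axis) with its SE for the 10 genes (y axis) in the 3 cell groups and for their mean, over 24 libraries (filled) and 22 libraries (open). Cdkn2a and Cdkn2b lie to the right and Cdkn2c and Lmnb1 to the left of 0 in every panel, and in the asbestos Siglec F-high panel Cdkn2a moves from 1.31 over 24 libraries to 2.81 over 22.

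Markers of other cells were compared beside these age differences. In naive cells the neutrophil markers summed to 30.5–38.3 CPM in young and 38.9–52.8 CPM in old libraries, and the epithelial markers to 179–276 and 285–390 CPM, so neither pair overlapped. Over the mean of the 3 groups 1 of 5 tested neutrophil, 1 of 7 epithelial, 1 of 2 tested eosinophil and 2 of 6 monocyte markers (Ly6c2 and Ccr2) were higher in old mice, and of 6 dendritic cell markers 1 was higher and 2 lower. Of all genes tested 5.99% were higher and 3.63% lower there. Over 22 libraries 3 neutrophil and 3 monocyte markers were higher, and the epithelial, eosinophil and dendritic cell counts were the same. In that fit 22.6% of all genes were called in either direction. No T and NK cell, endothelial or fibroblast marker was called over 24 or 22 libraries. B cell markers (0 of 8 called) summed to 195–210.5 CPM in young and 171.7–210.4 in old naive libraries. No list had a marker at 0 in all libraries, and the part of these cells in the results was not tested.

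Asbestos was compared with naive within Siglec F-high cells of each age. In young mice 1 of the 10 genes was called over 24 libraries (1.90% of all genes) and 0 over 22 (5.06%), with 4 at an unadjusted p under 0.05 over 24 (19.6% of all genes) and 3 called by voom. The call was Cdkn2a, at a log2 fold change of 2.36 ± 0.56 (SE, edgeR adjusted p = 0.0294), and it rested on replicate 3. Without the libraries that stand apart the young asbestos values of 2.187 to 3.11 CPM were still above all 4 naive values of 0.509 to 1.73 CPM, at a fold of 1.99 (log2 SE 0.32, edgeR adjusted p = 0.0784). The call was also lost with any 1 young naive library left out (edgeR adjusted p of 0.0548 to 0.112).

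In old mice 0 of the 10 were called over 24 libraries (0.780% of all genes; 0 at an unadjusted p under 0.05 beside 8.55% of all genes, 0 by DESeq2 and 1 by voom), and 1 over 22 (4.12%). That was Cdkn2a, with 16.5 to 18.9 CPM in 3 asbestos against 6.80 to 12.0 CPM in 4 naive libraries, a log2 fold change of 1.04 ± 0.24 (SE, edgeR adjusted p = 0.0131; 0.90 and 0.695 over 24 libraries). So edgeR called Cdkn2a only in young mice over 24 libraries and only in old mice over 22. The young and old comparisons share no library, but they share the fit's estimate of spread. Cdkn2b did not pass in either age over 22 libraries (0.54, edgeR adjusted p = 0.281 in young; 0.14, edgeR adjusted p = 0.808 in old). Cdkn2c had 0.50 in young (0.0654) and 0.20 in old (0.579), Cdkn2d 0.36 (0.0768) and 0.39 (0.0682), Cdkn1a 0.25 (0.460) and 0.30 (0.369), and Cdkn1b -0.39 (0.0873) and -0.20 (0.475), all as log2 fold change and edgeR adjusted p over 22 libraries. The other 4 genes were between -0.06 and 0.10.

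Stress and immediate early genes, which respond to tissue handling, also differed with asbestos: 7 of 17 were lower in young and 3 of 17 in old mice. Of all genes tested 1.90% and 0.780% were called in either direction. The largest falls were Hspa1b in young (-2.80 ± 0.42, SE, edgeR adjusted p = 0.000629) and Egr1 in old cells (-1.63 ± 0.33, SE, edgeR adjusted p = 0.0172). Hspa1b also fell with age in naive cells (-2.31 ± 0.41, SE, edgeR adjusted p = 0.00197). Markers of other cells differed too in young mice: 3 of 8 B cell markers and 2 of 6 monocyte markers were lower and 2 of 5 neutrophil markers higher (5, 2 and 1 over 22 libraries, where 5.06% of all genes were called). Over 22 libraries the neutrophil markers summed to 49.8–57.4 CPM with asbestos and 30.5–38.3 CPM in naive libraries, with no overlap, and the B cell markers to 183.2–188.7 and 195–210.5 CPM. In old mice 0 markers of these 3 lists were called (2 of 8 B cell and 1 of 6 monocyte markers lower over 22, beside 4.12% of all genes called). The part of any of these genes in the results on the 10 genes was not tested.

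Siglec F-low cells were compared with Siglec F-high cells of asbestos mice of the same age. Over 24 libraries 0 of the 10 genes were called in young mice (4.99% of all genes; 3 at an unadjusted p under 0.05 beside 20.7%, 2 by DESeq2) and 0 in old mice (4.30%; 2 at an unadjusted p under 0.05 beside 15.4%, 2 by DESeq2). Over 22 libraries 3 were called in young (12.0% of all genes) and 2 in old mice (11.6%), all higher in Siglec F-low cells. Cdkn2d was 1 of them at both ages. Young Siglec F-high libraries had 10.8, 12.7, 7.64 and 9.61 CPM and Siglec F-low libraries 12.7, 16.4, 14.1 and 13.6 CPM, and the old ones had 9.82, 10.6, 5.72 and 10.1 against 13.6, 14.9, 13.7 and 13.01 CPM. The sorts overlapped in young mice by 1 library and were separate in old mice. The log2 fold change over 22 libraries was 0.36 ± 0.11 in young (SE, edgeR adjusted p = 0.0425) and 0.43 ± 0.12 in old mice (SE, edgeR adjusted p = 0.0161), and over 24 it was 0.47 (0.0798) and 0.53 (0.0646).

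Mdm2 was the other gene called at both ages over 22 libraries. Young libraries had 81.8, 88.3, 74.3 and 80.8 CPM in Siglec F-high and 95.7, 101, 102 and 97.9 CPM in Siglec F-low cells, and old libraries 79.6, 77.2, 91.5 and 77.5 against 85.8, 91.1, 102 and 106 CPM. The young sorts were separate, and the old ones overlapped through the replicate 3 that stands apart. The log2 fold change over 22 libraries was 0.24 ± 0.08 (SE, edgeR adjusted p = 0.0457) in young and 0.30 ± 0.08 (SE, edgeR adjusted p = 0.0154) in old mice, and 0.29 (0.0845) and 0.25 (0.176) over 24.

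The difference of Cdkn2a between the sorts in young mice depended on replicate 3 of the Siglec F-high group. Without it, Siglec F-low cells (4.05 to 7.36 CPM) were above all 3 Siglec F-high libraries (2.187 to 3.11 CPM). Its log2 fold change was then 1.25 ± 0.28 (SE, edgeR adjusted p = 0.00415 over 22 libraries), against -0.10 ± 0.51 (SE, edgeR adjusted p = 0.934) over 24. Voom with sample quality weights, which kept all 24 libraries, gave 1.15 and called it. In old mice it was -0.30 ± 0.23 (SE, edgeR adjusted p = 0.502) over 22 libraries, and the sorts overlapped. Cdkn2b did not pass in either age (-0.21 and -0.24 over 22 libraries, edgeR adjusted p of 0.681 and 0.606). The Siglec F-low sorts also held more T and NK cell marker RNA, 46.0–73.1 CPM against 18.3–37.2 in young and 60.9–101 against 15.6–24.4 CPM in old mice. Of 8 such markers 1 was called at each age, beside 4.99% and 4.30% of all genes. Over 22 libraries 3 of 5 neutrophil and 2 of 6 monocyte markers were also higher in the young Siglec F-low sort and 1 of each in the old, beside 12.0% and 11.6% of all genes called. Neutrophil sums were 80.0–87.8 against 49.8–57.4 CPM in young mice. The part of these markers in the differences was not tested. Sorts of 1 age may come from the same animals, which the labels do not say.

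**Figure D4:**
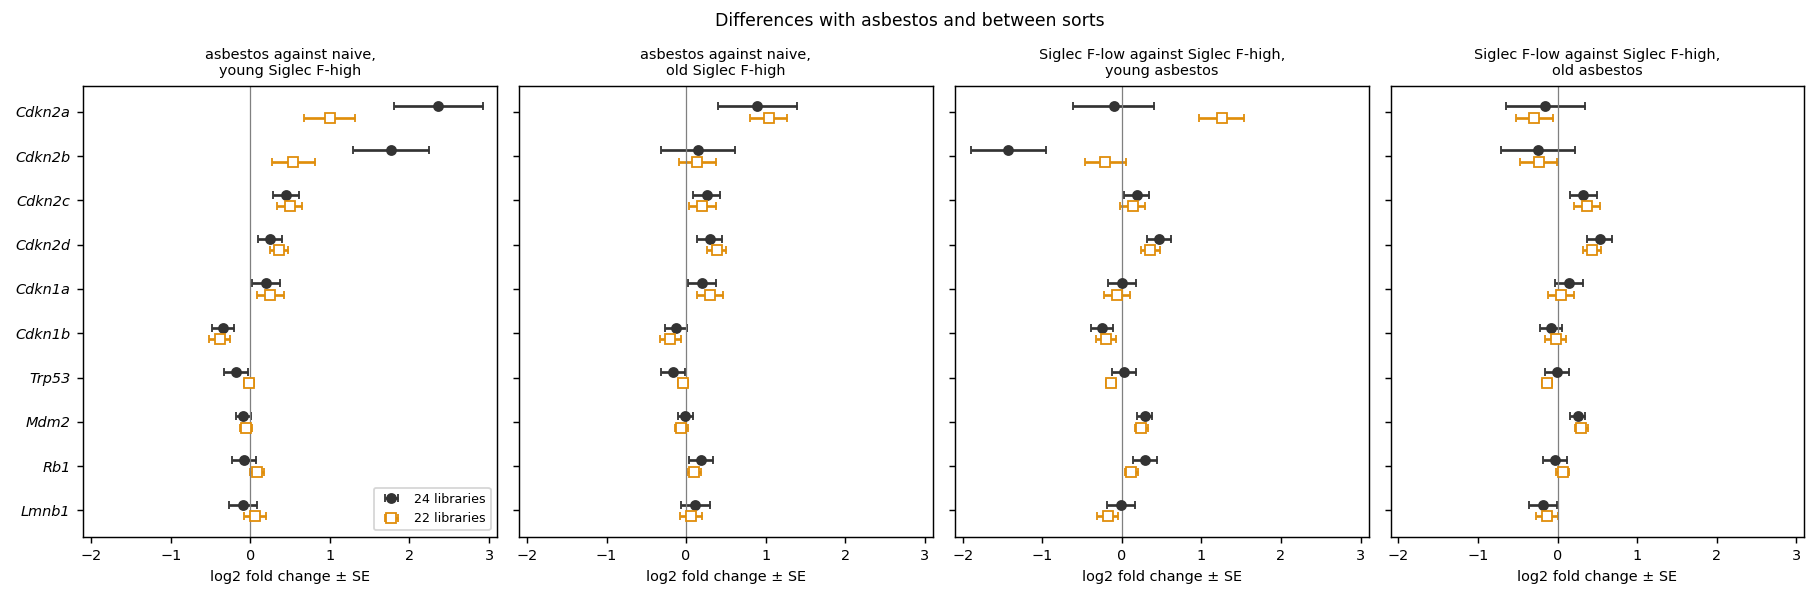
Log2 fold change (x axis) with its SE for the 10 genes (y axis), asbestos against naive in young and old Siglec F-high cells and Siglec F-low against Siglec F-high in young and old asbestos mice, over 24 libraries (filled) and 22 libraries (open). Cdkn2a in young mice moves from 2.36 to 0.995 with asbestos and from -0.10 to 1.25 between sorts when the 2 libraries are left out, and Cdkn2d and Mdm2 lie right of 0 in both sort panels.

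Whether the age difference itself changed with asbestos or with the sort was tested by interaction terms, and 0 of the 10 genes were called in either by edgeR over 24 or 22 libraries, by DESeq2 or by voom. Over 24 libraries 0 of all genes tested were called in either (0%), with 1 of the 10 genes at an unadjusted p under 0.05 for asbestos, Cdkn2b (7.80% of all genes), and 0 for the sort (4.83%). Over 22 libraries 0.0147% of all genes were called in each. Cdkn2a had a larger rise with age in Siglec F-high than in Siglec F-low cells in the 22 libraries (2.81 against 1.26), and the term for this difference was -1.55 ± 0.36 (SE) with an edgeR adjusted p of 0.204, so it did not pass. Its unadjusted edgeR p was 0.000315 and its 95% interval -2.30 to -0.79. Over 24 libraries the term was -0.05 (edgeR adjusted p = 0.991). The term for asbestos over 22 libraries was 0.04 ± 0.44 (SE, edgeR adjusted p = 1).

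The other genes of the pathway are given as counts over the mean age difference, beside 5.99% of all genes higher and 3.63% lower over 24 libraries. Over 22 libraries 22.6% of all genes were called in either direction. Of 12 cyclins and cyclin-dependent kinases 0 were higher and 7 lower (median log2 fold change -0.42; 9 lower over 22 libraries). This list shares Cdk1 and Ccnb1 with the proliferation markers, so the 2 counts are not separate. Cdk1, the mitotic kinase, fell by 0.87 (SE 0.16, edgeR adjusted p = 0.000683), and Ccna2, the S phase cyclin A2, by 0.72 (SE 0.08, edgeR adjusted p = 2.18e-06). Of 13 pocket proteins and E2F factors 0 were higher and 2 lower (4 lower over 22 libraries), the 2 being the late-cycle repressors E2f8 (-0.81 ± 0.11, SE, edgeR adjusted p = 2.28e-05) and E2f7 (-0.73 ± 0.16, SE, edgeR adjusted p = 0.00372). Cdkn1c and Cdkn3, the 2 further inhibitors listed, did not pass (edgeR adjusted p of 0.365 and 0.119).

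The p53 branch showed no common direction. Of 21 p53 target genes 3 were higher and 2 lower, with a median of 0.00 (4 higher and 4 lower over 22 libraries). Phlda3, an inhibitor of Akt signalling, rose by 0.66 ± 0.17 (SE, edgeR adjusted p = 0.0121). Btg2, an antiproliferative gene also listed among the stress and immediate early genes, was the smallest of the called rises. Eda2r, a receptor of the TNF family, was called on only 116 counts over 24 libraries, so no fold is given. Sesn1 (-0.47 ± 0.13, SE, edgeR adjusted p = 0.0225) and Perp (-0.35 ± 0.11, SE, edgeR adjusted p = 0.0454) fell. Over 22 libraries Perp was at -0.21 (edgeR adjusted p = 0.0249) and Sesn1 at -0.45 (0.00435). The targets summed to 1488–1554 CPM in young and 1466–1690 CPM in old naive libraries, with overlap. Of 10 p53 regulators and DNA damage kinases 1 was called, the p53 phosphatase gene Ppm1d (-0.29 ± 0.07, SE, edgeR adjusted p = 0.0111), and 4 were lower over 22 libraries.

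Beside Lmnb1, 2 of 8 lamina and nuclear envelope genes fell and 0 rose, with the same counts over 22 libraries. They were Tmpo (-0.56 ± 0.06, SE, edgeR adjusted p = 1.93e-06), which encodes lamina-associated polypeptides, and the other B-type lamin gene Lmnb2 (-0.33 ± 0.07, SE, edgeR adjusted p = 0.00517). The A-type lamin gene Lmna was at 0.00 (edgeR adjusted p = 0.976). Of 9 tested other genes linked to senescence 1 rose and 4 fell (3 and 4 over 22 libraries). The chromatin protein gene Hmgb2 fell by 0.76 over 24 libraries (SE 0.17, edgeR adjusted p = 0.00388) and by 0.49 over 22, and the Polycomb methyltransferase gene Ezh2 by 0.63 (SE 0.07, edgeR adjusted p = 1.91e-06). Bmi1, also a Polycomb gene, rose by 0.22 ± 0.06 (SE, edgeR adjusted p = 0.0111).

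Of 20 secreted factors associated with senescence 6 rose and 1 fell with age (median log2 fold change 0.40). Over 22 libraries 12 rose and 1 fell, while calls over all genes went from 9.62% to 22.6%. Mmp12, the macrophage elastase, had the largest rise (2.24 ± 0.33, SE, edgeR adjusted p = 6.61e-05), from 3.71–6.12 CPM in young to 12.6–156 CPM in old naive libraries. The chemokine gene Ccl5 rose by 1.05 ± 0.30 (SE, edgeR adjusted p = 0.0248). Igfbp4, a carrier of insulin-like growth factors, fell by 0.86 (SE 0.21, edgeR adjusted p = 0.00807). Il6, often named first among these factors, did not pass (0.69 ± 0.32, SE, edgeR adjusted p = 0.198). Mmp12 also rose with asbestos in young cells (3.44 ± 0.61, SE, edgeR adjusted p = 0.00294) and was higher in Siglec F-low cells of young mice (3.47 ± 0.59, SE, edgeR adjusted p = 0.000733).

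**Figure D5:**
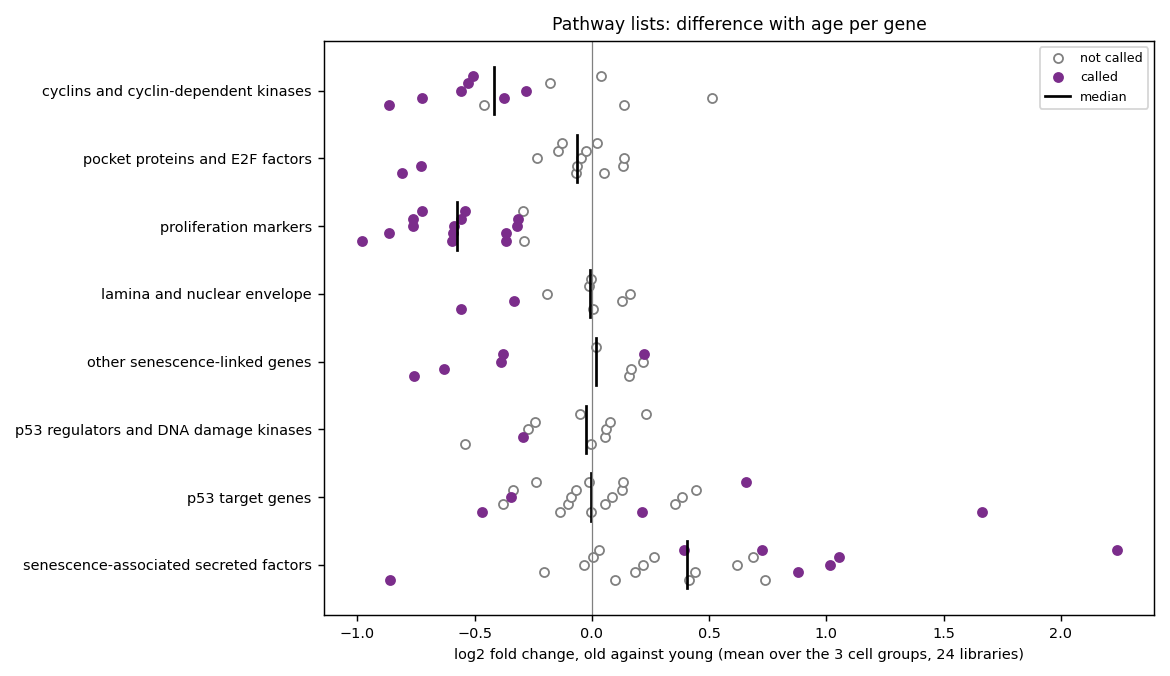
Log2 fold change of old against young, mean over the 3 cell groups and 24 libraries (x axis), for each gene of 8 pathway lists (y axis), filled where the edgeR adjusted p is under 0.05, with a line at the median of each list. The medians lie at -0.42 for cyclins and kinases, -0.57 for proliferation markers and 0.40 for secreted factors, and at 0.00 for p53 target genes.

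The genes whose level followed each of the 10 most closely were found by the Pearson r of log2 CPM over the 22 libraries, with r over 24 beside it, as a description with no test. Cdkn2a was most like Pla2g2d (0.939; 0.895), Mlph (0.937; 0.698) and Slc30a4 (0.937; 0.899). Cdkn2b was most like the class II antigen loading gene H2-DMb1 (0.933; 0.674), Cmbl (0.914; 0.719) and Slc1a3 (0.914; 0.636). Cdkn2c was most like the kinetochore gene Spc25 (0.913; 0.909), the ribonucleotide reductase gene Rrm2 (0.907; 0.854) and the nuclear pore gene Ndc1 (0.884; 0.868). Lmnb1 was closest to the condensin gene Ncapd2 (0.877; 0.844), Kif23 (0.873; 0.620) and Nrm (0.864; 0.694), and Cdkn2d to Lap3 (0.942; 0.822), Fabp5 (0.930; 0.897) and Acp5 (0.926; 0.907).

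For the remaining genes, as for those above, r was lower over 24 libraries than over 22. Since the genes were picked by their r over 22, the choice itself favours a lower r over 24. Cdkn1b was most like Cttnbp2nl (0.929; 0.562), Bdp1 (0.903; 0.584) and Fzd1 (0.903; 0.643), and Cdkn1a like Trmt61b (0.870; 0.690) and Slc25a25 (0.869; 0.500). Mdm2 had Fcho1 (0.875; 0.697), B4galt6 (0.865; 0.653) and Sec14l1 (0.858; 0.776), and Rb1 had mt-Cytb (0.876; 0.719), Enpp1 (0.849; 0.629) and Gpsm2 (0.843; 0.438). Trp53 had Zhx1 (0.870; 0.0524), Krt19 (0.853; -0.266) and Pilrb2 (0.834; 0.0856), so over all 24 libraries these likenesses were near 0 or negative. Between Cdkn2a and Cdkn1b r was -0.800 over 22 and -0.714 over 24 libraries.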

How the data were processed

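The authors deposited 1 table of raw read counts per Ensembl gene for the 24 libraries. Per the submitters' processing notes, the tools were bcl2fastq 2.19.1, FastQC, Trimmomatic 0.36, STAR 2.6.0 and HTSeq 0.11.2 and the build was mm10. Not given in the sources used here: annotation, strand setting, handling of shared reads. Symbols were found for 42462 of 43430 IDs.

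The 10 genes and all lists were chosen with earlier results of these data known. Genes were kept with filterByExpr (minimum count 10, minimum total 15), scaled by TMM and fitted with edgeR 4.0.16 (quasi-likelihood F test, 1 term per group, R 4.3.3), once over 24 libraries (13467 genes) and once without the 2 that stand apart (13629 genes). A gene was called at a Benjamini-Hochberg adjusted p under 0.05 over all genes of a comparison. The age mean weights the 3 cell groups equally and takes no account of animals that the asbestos sorts may share. Groups overlap when the ranges of their libraries do.

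Of each list, the 2 called genes of largest change in each direction were named, and others after their values were seen. Likeness is the r of log2 CPM (prior count 2) over named genes passing the filter, the 3 highest named per gene; 1 of them is not reported here. Lengths and positions are from GENCODE M21. Alternatives were DESeq2 1.42.0, limma 3.58.1 (voom with sample quality weights), RLE scaling, no filter, each library left out in turn, the replicate number as a block and, added after seeing the data, the block over 22 libraries. The fit was tested on simulated data. Intervals are 95%.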

Additional observations from a re-analysis of the deposited data

Results flagged for a closer look

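Single libraries stood far from the other 3 of their group in 8 of the 60 sets of 4 values (10 genes in 6 groups), by a gap over 0.829 of the group's range. Chance gives about 1 in 20. Replicate 3 of the young asbestos Siglec F-high group accounted for 3 of them: Cdkn2a at 19.7 CPM (others 2.187 to 3.11), Cdkn2b at 17.3 CPM (2.34 to 2.89) and Trp53 at 39.1 CPM (68.3 to 73.6). Replicate 3 of the old asbestos Siglec F-high group gave Cdkn2d at 5.72 CPM (others 9.82 to 10.6), Trp53 at 42.5 CPM (66.4 to 71.0) and Mdm2 at 91.5 CPM (77.2 to 79.6). These are the libraries with the fewest genes detected and the fewest counts. Cdkn2b in replicate 2 of the old naive Siglec F-high group was at 9.15 CPM (others 5.25 to 5.58), and Rb1 in replicate 1 of the young asbestos Siglec F-low group at 80.0 CPM (others 64.3 to 65.8). Neither of those libraries stands apart in depth.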

How the results depend on the processing

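The count of called genes for the mean age difference was 5 in every fit that left out 1 library and under every other alternative but DESeq2, where it was 4 because no adjusted p was given for Cdkn2b; DESeq2 gave none for 10 of the 100 values. The other counts moved. In naive cells (2 of 10) it was 5 over 22 libraries, with voom and over 22 with the replicate block, and 1 with RLE scaling. In asbestos Siglec F-high cells (1) it was 4 over 22 libraries, 5 with voom and 4 over 22 with the block, and in Siglec F-low cells (0) 4, 4 and 4, and 1 with DESeq2. Asbestos in young mice (1) gave 0 over 22 libraries, 3 with voom and 0 with the block, and in old mice (0) 1 over 22, with voom and over 22 with the block. The sort in young mice (0) gave 3 in those fits and 2 with DESeq2, and in old mice (0) 2 in those fits and with DESeq2, and 1 with RLE or the block. The log2 fold change of Cdkn2a between sorts in young mice (-0.10) reversed to 1.25 over 22 libraries, 1.15 with voom, 1.34 over 22 with the block and 1.25 without replicate 3 of the young asbestos Siglec F-high group; with other single libraries left out it went down to -0.40. The cause was not tested. With 1 library left out the counts ranged over 1–5 in naive, 0–4 in asbestos Siglec F-high and 0–4 in Siglec F-low cells, 0–2 and 0–1 for asbestos in young and old, 0–2 and 0–2 for the sort, and 0–0 for the interactions. Sign changes called in neither fit (172 of 3100 values) were not counted as reversals.

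All genes called moved by over 1.5 times between 24 and 22 libraries in each comparison: 273 and 1094 for age in naive, 641 and 997 in asbestos Siglec F-high, 174 and 983 in Siglec F-low cells, 1295 and 3076 for their mean, 256 and 690 for asbestos in young, 105 and 562 in old, 672 and 1638 for the sort in young, and 579 and 1578 in old mice.

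Replicate numbers are shared between groups but the labels do not say what they mark. Same-numbered libraries had correlated deviations of -0.286 to 0.245 over the comparisons of 24 libraries. Between sorts of 1 age, which may share animals, they were -0.18 to 0.245 in young and 0.0733 to 0.186 in old mice. Over 22 libraries (3 numbers) they were 0.0854 to 0.319 in the young and 0.150 to 0.205 in the old sorts. Every correlation was above 0.1 only in the old sorts over 22 libraries, where the block left 2 genes called. Whether the sorts were paired cannot be settled from these values. In the old sorts of 24 libraries all 4 numbers correlated best with their own. No gene fell under the low-count filter, so the test planned for such genes gave no value.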
